A study of Mus musculus with 4 samples.

Results

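Short reads can only be placed on the genome where their sequence is distinct. In this mouse chromatin immunoprecipitation sequencing (ChIP-seq) set, a read that matched the genome in 2 places, within the mismatches allowed, was kept and listed at both, so each such read appears as 2 lines, one per location. The bins described here are the autosomal 5 kb bins in which such 2-location lines were both numerous and in the majority. A bin was kept if it held at least 20 lines of 2-location reads, summed over 4 libraries, and more of them than lines of single-location reads. The rule was met by 8166 of 471350 autosomal bins with a line of either kind, or 1.73%. The bins were thus chosen by these line counts, which are given below as a description. The ratio between libraries was not part of the rule, although it is computed from the same lines.

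The 4 libraries were 1 each of MEF H3K4me3, MEF H3K27me3, MEF H3K9me3 and secondary MEF H3K9me3. MEF are mouse embryonic fibroblasts, connective tissue cells grown from embryos, here cultured in DMEM with fetal serum. Secondary MEF carry inducible Klf4, Sox2 and Oct4 (KSO) with an Oct4-selectable cassette, and were taken at 13.5 dpc from chimeric embryos made by injecting induced pluripotent stem cells into BDF2 blastocysts. A 48 hour exposure to puromycin at 2 µg/ml selected the cells of the injected line, and their labels record a different culture medium with cosmic calf serum. The labels do not say whether the secondary MEF library was made with or without doxycycline. Both H3K9me3 libraries used a single antibody lot. Per the run names in the labels, the 3 MEF libraries were sequenced on a flow cell that differs from that of the secondary MEF library, so cell source, medium and flow cell cannot be told apart in that pair. With 1 library in each group, no comparison has a replicate check and none is a test between conditions. Intervals cover counting error only, and PCR copies are not independent molecules. The labelled cell type was not checked against marker genes, since no gene annotation of the build used, mm8, was at hand. Regions are therefore named by position alone.

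Segmental duplications are long stretches of a genome that occur more than once with nearly the same sequence, side by side or far apart, in the same or in the opposite orientation. They often hold families of related genes. A short read from a duplicated stretch cannot be assigned to one copy unless the copies differ enough along it, and reads that matched more than 2 places were discarded by the alignment used here. The lines described are therefore from sequence that occurs 2 times in the assembly, exactly or with few mismatches. The marks have distinct roles: H3K4me3 is found at active and poised promoters, H3K27me3 is laid down by Polycomb repressive complex 2 over silenced developmental genes, and H3K9me3 marks heterochromatin, including many repeats and clustered gene families.

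Single-location reads numbered 7986294 to 12244976 per library and lines of 2-location reads 542756 to 613168. Of all lines, those of 2-location reads were 4.43% in MEF H3K4me3, 5.26% in H3K27me3, 6.44% in H3K9me3 and 6.61% in the secondary MEF library. Their total was even in every library. Levels below are lines per 1000000 of a library's own 2-location lines (LPM), so they compare the placement of these lines and not their amount.

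The bins held 759961 lines of 2-location reads, 35.2% of all such autosomal lines, and 211216 lines of single-location reads. The median bin had 45 lines, with quartiles of 29 and 85, and the highest had 17883. In 1079 bins there was no single-location line at all, and in 2388 bins (29.2%) the 2-location lines outnumbered the others by more than 10 times. The lines were unevenly spread: 1656 bins had at least 100 lines, 55 had at least 1000, and the 10 leading bins alone held 8.36% of all lines in the set. At the lower edge of the rule, 263 bins had exactly 20 lines, while 267 bins with 19 lines met the other condition and were left out. At the other edge, 81 bins had a single line more of 2-location than of single-location reads, and 106 bins of at least 20 lines had equal numbers and were left out. On chromosome 1, for example, the bin from 30030001 to 30035000 was kept with 39 lines against 38, and the bin from 31205001 to 31210000 was left out with 20 against 20.

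MEF H3K4me3 had the largest part of its 2-location lines in these bins. The share of a library's autosomal 2-location lines was 43.6% for MEF H3K4me3 (95% Clopper-Pearson interval 43.4 to 43.7), 33.5% for H3K27me3 (33.4 to 33.7) and 32.0% for H3K9me3 (31.9 to 32.1), and 31.9% for H3K9me3 of secondary MEF (31.8 to 32.0). The median bin went the other way, with 12.3 LPM for MEF H3K4me3, 18.4 for H3K27me3, 21.2 for H3K9me3 and 23.0 for the secondary MEF library. H3K4me3 lines were thus concentrated in fewer bins. No MEF H3K4me3 line was found in 113 bins, against 49 bins without H3K27me3, 14 without MEF H3K9me3 and 10 without H3K9me3 in secondary MEF. A count of 0 allows up to 3 lines, which is 5.29 LPM for MEF H3K4me3 and 5.53 LPM for MEF H3K27me3. The number of lines at the same position and strand was higher in these bins than elsewhere in every library. Distinct positions made up 77.7% of MEF H3K4me3 lines in the bins and 92.6% in other autosomal bins, and 87.5% against 97.5% for MEF H3K9me3. The part of such repeated positions in the shares was measured by keeping 1 line per position and strand, which gave 38.4% for MEF H3K4me3 and 29.3% to 31.9% for the other libraries.

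The bins were spread over all 19 autosomes, and unevenly. Chromosome 7 had the most, 823 bins or 3.04% of its bins with a line, and chromosome 17 had 704 bins, or 3.88%. Chromosome 17 held 16.98% of all 2-location lines in the set. Chromosomes 13, 6, 1, 12, 4 and 5 had 626, 594, 581, 544, 542 and 512 bins. Chromosome 18 had the fewest, 118 bins or 0.679%. Mouse autosomes have their centromere at one end, where the assembly begins. Among bins within 500 kb of the first bin with a line on each chromosome, 13.2% met the rule (234 of 1776), and within 500 kb of the last such bin 4.48% did (83 of 1853).

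**Figure D1:**
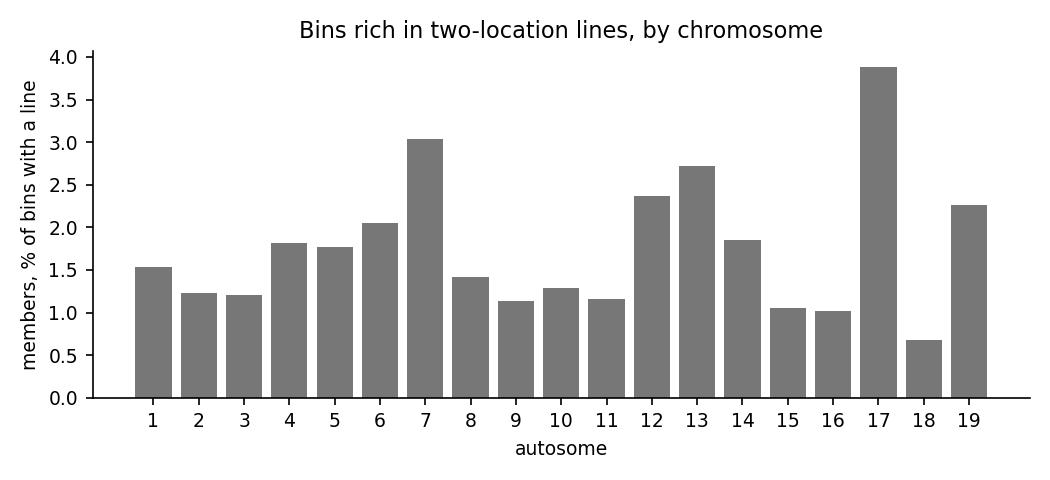
Share of each autosome's 5 kb bins with a line that were rich in 2-location lines. Bars start at 0; chromosome 17 stands highest at 3.88% and chromosome 18 lowest at 0.679%.

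Bins near each other on a chromosome were joined into clusters where the gap between them was at most 50 kb. This gave 930 clusters of at least 2 bins, which held 7025 bins (86.0%), while 1141 bins stood alone. The median cluster had 4 bins and spanned 45 kb. The 200 clusters of at least 10 bins held 4232 bins, or 51.8% of the set, and 75 clusters spanned 200 kb or more. By number of bins, the leading cluster was chr14:117670001-118125000 with 79 bins, followed by chr1:45955001-46760000 with 77, which was also the longest at 805 kb, and chr19:7855001-8485000 with 69. The others among the 10 with the most bins were chr1:175300001-175890000 (60 bins), chr13:17680001-18075000 (60), chr15:77225001-77570000 (59), chr12:88370001-88880000 (53), chr2:100250001-100565000 (52), chr6:70035001-70390000 (49) and chr17:7745001-8010000 (48).

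Since both locations of a read are listed, 2 direct copies of a duplicated stretch leave the same pattern of positions at a fixed distance from each other. Inverted copies leave it mirrored about a fixed point. For every bin, the distance to other 2-location positions of the same library that the most of its distinct positions shared was found, on the same strand for a direct copy. For an inverted copy, positions on the opposite strand were used, and the shared value was the mirror point. In what follows, 1 distance stands for 1 mirror point where a copy is inverted. The distance given is then that between the bin's centre and its mirrored centre. A bin was called linked if at least 5 positions and at least 50% of its distinct positions shared 1 exact distance, and if these were at least 2 times as many as at the next best distance. These limits were chosen after the values had been seen. Of the 8166 bins, 2111 (25.9%) were linked, 823 of them with at least 90% of their positions at 1 distance. A bin that was not linked may still be duplicated, because any insertion or deletion between copies divides its positions among several distances. Among the 7097 autosomal bins that had at least 20 lines of 2-location reads but at least as many single-location lines, 768 (10.8%) were linked.

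**Figure D2:**
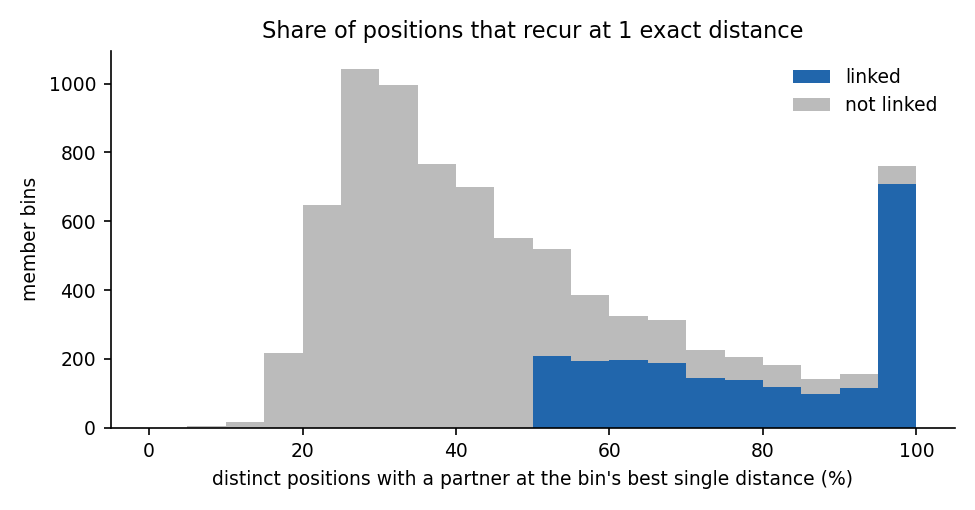
Histogram of the share of each bin's distinct 2-location positions that had a partner at its best single distance (mirror point for an inverted copy), in 5 percentage point steps; blue bins were linked and grey bins were not. Most bins lie under 50%, and a separate group of linked bins lies at 95% and above.

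Copies were mostly close by. Of the 2111 linked bins, 1921 (91.0%) had their partner on the same chromosome, at a median distance of 138 kb, with a 10th percentile of 17.6 kb and a 90th percentile of 909 kb. A partner within 1 Mb was found for 1750 bins (82.9%). The copy was direct for 1330 bins and inverted for 781 (37.0%). The partner bin itself met the rule in 1748 cases (82.8%). Partners on another chromosome were found for 190 bins, 4 of them on X or Y. The linked bins that did not meet the rule had closer partners, at a median of 17.4 kb, and 58.7% of them were inverted. Linked bins of a pair list the same reads, so they do not count as independent observations.

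In 15 clusters at least 10 bins had 90% or more of their positions at 1 distance, and these clusters held 345 of the 823 such bins. The largest was chr14:117670001-118125000. It held 10100 lines of 2-location reads and only 17 of single-location reads over its 79 bins, and 76 bins were linked, 45 to an inverted and 31 to a direct copy within the same chromosome. The commonest distance, 252623 bp, was shared by 16 of its bins. Its bins carried 6 to 492 MEF H3K4me3 lines with a median of 15, and 8 to 152 MEF H3K27me3 lines with a median of 28. For H3K9me3 they carried 7 to 66 lines in MEF, with a median of 27, and 6 to 45 in secondary MEF, with a median of 21. The H3K4me3 lines were therefore focal, with the highest bin far above the median, while both H3K9me3 libraries were flat.

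The cluster chr13:17680001-18075000 had a like structure, with 4822 lines of 2-location reads against 4 of single-location reads and 59 of its 60 bins linked, 35 to a direct and 24 to an inverted copy. The distance of 222288 bp was shared by 22 bins. MEF H3K4me3 lines ranged from 1 to 478 per bin with a median of 7, so here too a few bins held most of them. MEF H3K27me3 ranged from 3 to 41 with a median of 13.5, MEF H3K9me3 from 4 to 25 with a median of 14 and secondary MEF H3K9me3 from 3 to 36 with a median of 12. In chr2:100250001-100565000, 47 of 52 bins were linked, 17 of them at 166509 bp, and no library reached more than 33 lines in any bin. Neither H3K4me3, at 2 to 13 lines per bin, nor the other marks had a focal maximum there. The cluster chr4:31630001-31900000 was alike, with all 42 bins linked, 27 of them at 159824 bp, and 3 to 18 MEF H3K4me3 lines per bin.

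Other near-complete copies differed in the mark they carried. The cluster chr17:55715001-55795000, with a commonest distance of 40416 bp, was rich in H3K27me3. Its 16 bins held 82 to 341 MEF H3K27me3 lines with a median of 210.5, against medians of 47 for H3K4me3, 76.5 for H3K9me3 and 47.5 for the secondary library. The cluster chr12:55985001-56150000, with 12 bins at 75064 bp, was rich in H3K4me3 in a few bins: the highest had 949 MEF H3K4me3 lines and the median bin 7. The pair chr4:20155001-20295000 and chr4:19960001-20095000 each had 11 bins at 195604 bp, and held 446 and 438 MEF H3K4me3 lines, 263 and 247 MEF H3K27me3 lines, 286 and 253 MEF H3K9me3 lines and 199 and 176 secondary MEF H3K9me3 lines. As they list the same reads, the likeness of the pair follows from the way the reads were placed. An inverted pair on chromosome 17 lay much farther apart: all 12 bins of chr17:63890001-63955000 and all 12 of chr17:93135001-93200000 were linked to an inverted copy. The distance between centres differed from bin to bin, and was 29184190 bp for 1 of them.

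The 634 bins with at least 90% of positions at 1 distance and with single-location lines making up at most 5% of their lines can be set on the scale of ordinary sequence, since nearly all of their reads should be listed at both copies. This subset was chosen after the data were seen. Each of its reads stands for 1 of 2 copies, so the lines per bin were divided by 2 and by the library's mean number of single-location lines per autosomal bin (24.4, 19.4, 17.7 and 15.9 in the order MEF H3K4me3, MEF H3K27me3, MEF H3K9me3 and secondary MEF H3K9me3). Per copy, the median bin stood at 0.143, 0.283, 0.396 and 0.408-fold in the same order. The median of all autosomal bins, by single-location lines, was 0.328, 0.670, 0.848 and 0.878-fold. Without the division by 2 the subset's medians were 0.287, 0.567, 0.791 and 0.815-fold, so in all 4 libraries the undivided level was near that of ordinary sequence and the divided level was below it. Whether both copies are present in the genome of these cells was not tested. The minimum of 20 lines keeps bins with fewer lines out of the subset.

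Single bins of this subset stood far above its median, and they were seen in different marks. The highest for MEF H3K4me3 was chr4:12065001-12070000, with 1058 MEF H3K4me3 lines, 28 MEF H3K27me3 lines, 33 MEF H3K9me3 lines and 41 secondary MEF H3K9me3 lines, or 21.7-fold per copy for H3K4me3 and 0.721, 0.933 and 1.29-fold for the others. Of its 834 distinct positions, 830 recurred at 50878 bp. Next came chr12:56040001-56045000 and its copy 75064 bp away, at 19.4-fold each. For MEF H3K27me3 the highest was chr17:6275001-6280000, with 363 lines or 9.35-fold. H3K9me3 was as high there, with 8.39-fold for MEF and 9.82-fold for the secondary library. By contrast, chr17:55775001-55780000 had 8.78-fold MEF H3K27me3 with 2.49-fold and 1.91-fold H3K9me3. For both H3K9me3 libraries the highest bin was chr10:57625001-57630000, a direct copy at only 7679 bp, with 432 lines (12.2-fold) in MEF and 552 lines (17.3-fold) in secondary MEF, against 140 lines (2.87-fold) for MEF H3K4me3 and 126 lines (3.25-fold) for MEF H3K27me3.

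The bins with the highest levels fell into 2 kinds. The first kind was highest in both H3K9me3 libraries but high in all 4. The bin chr2:98465001-98470000 had 5172 LPM of MEF H3K4me3, 5395 of H3K27me3 and 12194 of H3K9me3, and 8042 LPM in the secondary library. Its neighbour chr2:98460001-98465000 had 3251, 3475, 7551 and 4883 LPM, and chr14:39185001-39190000 had 3374, 3401, 7851 and 4368 LPM. These 3 bins were the leading ones in every library except MEF H3K4me3. They also held 9817, 2798 and 4856 single-location lines, and up to 143 MEF H3K9me3 lines fell on a single position and strand. In MEF H3K9me3 the 7477 lines of the first bin lay on 623 distinct positions. Positions were so dense in these 3 bins that their best distance was 1 bp, which is no sign of a copy.

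The second kind was led by H3K4me3, with the other libraries far lower but still above their own 90th percentile over all bins (61.9 to 75.5 LPM). The bin chr17:3040001-3045000 had 3775 MEF H3K4me3 lines (6655 LPM, 95% interval 6445 to 6870) on 890 distinct positions, against 127 MEF H3K27me3 lines (234 LPM), 156 MEF H3K9me3 lines (254 LPM) and 163 secondary MEF H3K9me3 lines (288 LPM). The bin chr11:3020001-3025000 was almost the same, with 3760, 130, 162 and 166 lines. Of the 1274 distinct positions of the chromosome 17 bin, 966 (75.8%) lay at 1 inverted distance from positions in and beside the chromosome 11 bin. The next best distance had 657, so the limit for a link was not met. Another such bin, chr1:196940001-196945000, had 3194 MEF H3K4me3 lines on only 189 distinct positions, and 199, 184 and 199 lines in the other libraries. Its positions matched chr19:61250001-61255000 at 1 direct distance in 346 of 500 cases (69.2%), again with many (314) at the next best. That bin held 3167 MEF H3K4me3 lines.

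The 10 clusters with the most lines repeated these kinds at a larger scale and added others. The 2 bins of chr2:98460001-98470000 led with 29002 lines. Next were chr17:7745001-8010000 and chr17:6745001-6985000, which matched each other in every library: 4509 and 4498 MEF H3K4me3 lines, 4320 and 4303 MEF H3K27me3 lines, 3273 and 3255 MEF H3K9me3 lines and 2338 and 2320 secondary MEF H3K9me3 lines. All of the linked bins of this pair, 18 in the first and 19 in the second, were linked to an inverted copy on chromosome 17. As linked bins list the same reads, the likeness of the pair follows at least in part from the way the reads were placed. The cluster chr17:6265001-6455000 followed with 12895 lines. MEF H3K4me3 led in chr17:14695001-14765000, with 8478 of 12357 lines (14946 LPM against 1983 to 2474 in the other libraries), in chr11:3000001-3040000, with 5401 of 11122 lines, and in chr13:12670001-12890000, with 4050 of 7913 lines. MEF H3K27me3 led in chr15:77225001-77570000, at 6644 LPM against 2509 for H3K4me3, 4323 for H3K9me3 and 3354 for the secondary library. It also led in chr3:96425001-96575000, at 8661 LPM against 3827, 2198 and 1688 LPM.

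**Figure D3:**
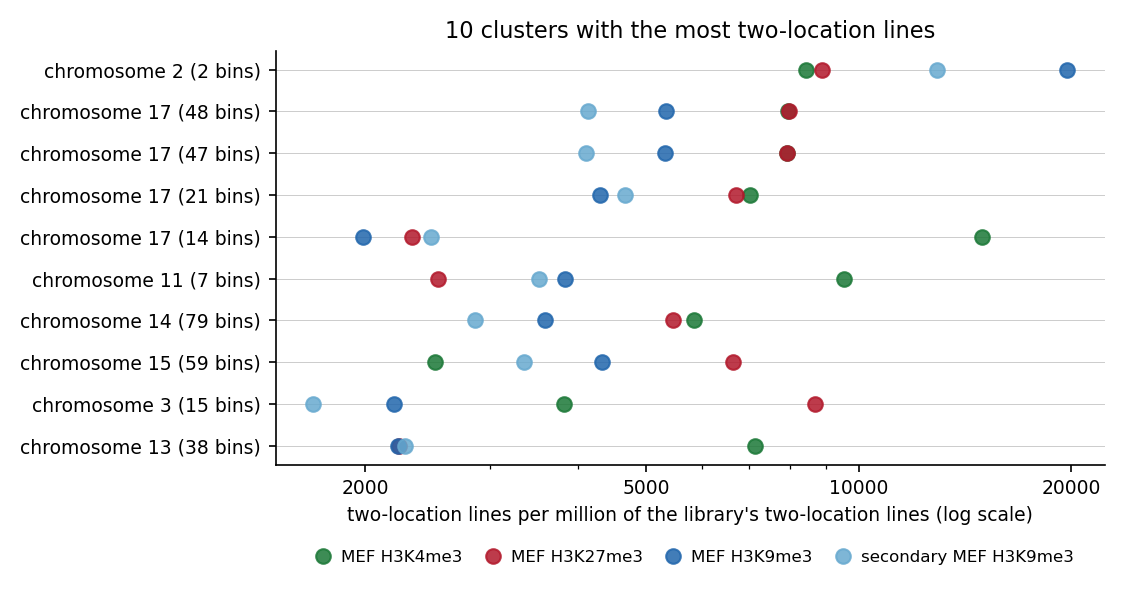
Level of each library in the 10 clusters with the most 2-location lines (rows, from the most lines at the top), as LPM on a log scale; each dot is 1 library. MEF H3K4me3 and MEF H3K27me3 coincide in the 48-bin and 47-bin clusters of chromosome 17, and the H3K9me3 libraries stand highest only in the 2-bin cluster of chromosome 2.

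Between MEF marks the bins divided in both directions. A difference was called at 2-fold or more in LPM with a Clopper-Pearson interval of the ratio, allowing 0.1% error, that excluded 1, in bins with at least 20 lines in both libraries together. Of 4401 bins that could be compared, MEF H3K9me3 exceeded MEF H3K4me3 in 567 (12.9%) and was below it in 701 (15.9%). Over all 6886 autosomal bins compared in this way, 9.51% were higher and 27.5% lower. MEF H3K27me3 exceeded MEF H3K4me3 in 735 of 3665 bins (20.1%) and was below it in 674 (18.4%), where 16.1% and 29.2% of all 6185 bins were. MEF H3K9me3 exceeded MEF H3K27me3 in 123 of 4715 bins (2.61%) and was below it in 249 (5.28%), close to the 2.37% and 5.98% of all 6806 bins. The totals over all bins include the bins of the set. Outside the set, MEF H3K9me3 was above MEF H3K4me3 in 3.54% of 2485 bins and below it in 48.1%. For MEF H3K27me3 to MEF H3K4me3 these shares were 10.4% and 44.9% of 2520 bins. For MEF H3K9me3 to MEF H3K27me3 they were 1.82% and 7.56% of 2091 bins. By the rule, the bins outside the set held at least as many single-location as 2-location lines. The rule can thus itself shape how their shares differ from those of the set. Chromosome 17, with 704 of the 8166 bins of the set, held the most of the bins that differed in 5 of these 6 directions. These were 99 of the 567, 76 of the 701, 168 of the 735, 71 of the 674 and 82 of the 249. The 3 comparisons share libraries, so they do not support one another.

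Which direction was the more frequent depended on the settings. Scaled by single-location lines instead, 1429 bins had more MEF H3K9me3 than MEF H3K4me3 and 573 had less. For MEF H3K9me3 against MEF H3K27me3 this scaling gave 262 higher and 115 lower, which turns the balance. The share of 2-location lines in a library, from 4.43% for MEF H3K4me3 to 6.44% for MEF H3K9me3, is what separates the scalings. In 10 kb bins MEF H3K9me3 was above MEF H3K4me3 in 598 and below it in 474, and with more than 2 times as many 2-location as single-location lines required the counts were 476 and 473. For MEF H3K27me3 against MEF H3K4me3 the lower bins became the more numerous with 1 line per position and strand (587 higher, 613 lower), with at least 50 lines in the pair (531 and 562) and with 1 of each linked pair of bins (618 and 654). No direction is therefore read from these counts.

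Clusters with at least 100 lines in the pair of marks show how far single regions went. MEF H3K9me3 exceeded MEF H3K4me3 most in chr5:123460001-123485000, with 100 lines against 15, a ratio of 6.17 (95% interval 3.57 to 11.4). That cluster also held 116 MEF H3K27me3 lines, a ratio to H3K4me3 of 8.08 (4.70 to 14.9). Next came chr8:4100001-4140000 at 4.32 (2.57 to 7.63) and chr7:43845001-44060000 at 4.16 (2.54 to 7.14). At the other end, H3K4me3 stood almost alone in chr13:23550001-23570000, with 403 lines against 8 of MEF H3K9me3 (0.0184, 0.00787 to 0.0365) and 23 of MEF H3K27me3. It did so as well in chr3:96320001-96335000, with 1645 lines against 52 and 59, and in chr15:32860001-32870000, with 1019 against 44 and 49. None of these 3 was linked to a copy at 1 distance. The rule sums the 4 libraries, so a bin can meet it mainly through the library that is high there. In chr13:23550001-23570000, for example, MEF H3K4me3 held 403 of the 446 2-location lines. Such extreme ratios are therefore a description only.

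H3K27me3 over H3K4me3 was highest in chr4:88290001-88310000, with 122 lines against 11 (11.6, 6.25 to 23.8), and in chr1:34445001-34505000, with 247 against 30 (8.60, 5.88 to 13.0). It was lowest in chr8:102915001-102925000, with 3 lines against 158 (0.0198, 0.00405 to 0.0591), followed by chr3:96320001-96335000, with 59 against 1645 (0.0375, 0.0284 to 0.0486), and chr12:49430001-49440000, with 9 against 248 (0.0379, 0.0171 to 0.0732). In the 2 bins of chr8:102915001-102925000 MEF H3K4me3 held 158 of 194 lines, so at least 1 bin reached 20 lines only through that library. H3K9me3 without like H3K27me3 was seen on chromosomes 13 and 10. The cluster chr13:65215001-65315000 had 100 MEF H3K9me3 lines against 14 MEF H3K27me3 lines (6.32, 3.60 to 11.98), with 102 lines in secondary MEF. The cluster chr10:81530001-81545000 had 153 against 24 (5.64, 3.65 to 9.08), with 158 in secondary MEF and all 3 of its bins linked to an inverted copy. Close to it, chr10:81070001-81365000 had 300 against 58 (4.58, 3.45 to 6.17). H3K27me3 was far above H3K9me3 in chr8:126485001-126510000, with 163 lines against 35 (a ratio of H3K9me3 to H3K27me3 of 0.190, 0.128 to 0.275), and in chr1:172900001-172920000, with 1344 against 295 (0.194, 0.171 to 0.221).

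Single-location lines in the same bins give a reading of the same places that does not rest on reads with 2 locations. Over clusters with at least 50 lines of each category in the pair of libraries, the log2 ratios from the 2 categories had a Pearson correlation of 0.809 for MEF H3K9me3 to MEF H3K4me3 (347 clusters), 0.853 for MEF H3K27me3 to MEF H3K4me3 (317), 0.816 for MEF H3K9me3 to MEF H3K27me3 (372) and 0.613 for secondary MEF to MEF H3K9me3 (406). Both axes come from the same 2 libraries and bins, so this is a description. Against single-location lines in the bins within 50 kb on either side, the correlations were lower, at 0.211 (660 clusters), 0.158 (600), 0.582 (662) and 0.446 (722). Clusters at 0.5 or less by 2-location lines were not always below 1 by single-location lines. For MEF H3K9me3 to MEF H3K4me3 65 of 84 were, and for MEF H3K27me3 to MEF H3K4me3 67 of 81. For MEF H3K9me3 to MEF H3K27me3 all 30 were, and for the H3K9me3 pair all 3. At 2 or more, 107 of 108, 103 of 103, 27 of 27 and 12 of 12 were above 1, in the same order. The cluster chr8:102915001-102925000 had only 20 single-location lines of H3K27me3 and H3K4me3, too few for these counts. Its H3K27me3 to H3K4me3 ratio was 0.0198 by 2-location lines but 1.25 (0.468 to 3.35) by single-location lines.

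**Figure D4:**
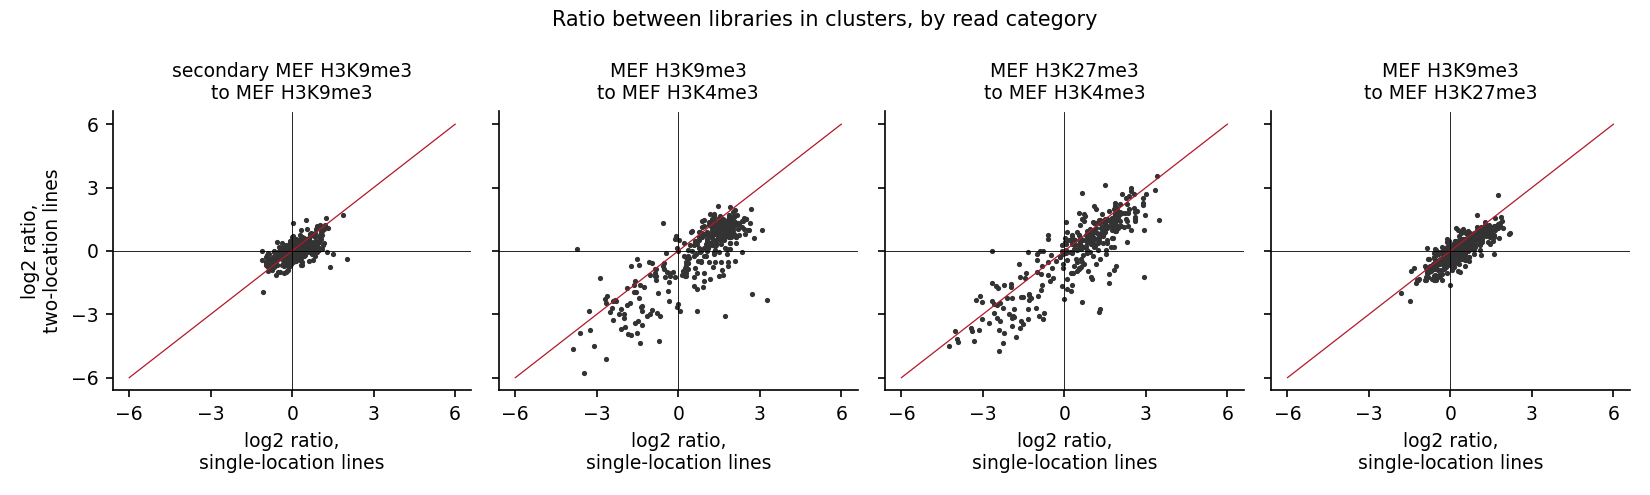
Log2 ratio between 2 libraries in clusters of bins, from single-location lines (x axis) and 2-location lines (y axis), 1 panel for each pair of libraries and 1 point for each cluster with at least 50 lines of each category; the red line marks equal ratios. Points rise along the line in all 4 panels, with Pearson correlations of 0.613 to 0.853. Those of MEF H3K9me3 to MEF H3K4me3 lie mostly below the line (median ratios of 1.43 by 2-location and 2.38 by single-location lines). Each axis is scaled by the library totals of its own read category, which moves points off the line even at equal ratios of unscaled lines. The offset is therefore not read as a difference between the categories.

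The H3K9me3 pair compares the placement of 2-location H3K9me3 lines between ordinary and secondary fibroblasts. No control library was used, so whether the number of DNA copies differs between these cells was not tested. Over all bins the ratio of secondary MEF to MEF shares of autosomal 2-location lines was 0.996 (0.989 to 1.003), from 170240 and 184398 lines. This value rests on few bins: the 10 bins with the most lines had a ratio of 0.650 (0.635 to 0.665), and without them it was 1.04 (1.03 to 1.04). In the leading 3, the levels in LPM were 8042 against 12194, 4883 against 7551 and 4368 against 7851. Another bin with high H3K9me3, chr9:35055001-35060000, had 1122 against 1936. All 4 were lower in secondary MEF, at ratios of 0.556 to 0.660, while the 6 leading bins rich in H3K4me3 had ratios of 1.11 to 1.95. Of those 6, the interval included 1 for all but chr17:14745001-14750000, at 1.95 (1.48 to 2.58). The 6 are not independent. Many positions of chr17:3040001-3045000 matched chr11:3020001-3025000, and many of chr1:196940001-196945000 matched chr19:61250001-61255000.

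Few bins differed one by one, at about the rate of all bins compared. Of 5590 bins with at least 20 lines in the pair, 79 (1.41%) were higher in secondary MEF and 38 (0.680%) were lower. Of all 7548 autosomal bins compared, which include these, 1.42% were higher and 0.662% lower. Of the 1958 bins outside the set, 1.43% were higher and 0.613% lower. The higher bins lay in 45 clusters or single bins, and 38 of them were on chromosome 12, leaving 41 elsewhere. No bin of chromosome 12 was lower. Of the 38 lower bins, 15 were on chromosome 17. Chromosomes 12 and 17 held 413 and 535 of the 5590 bins compared. Of the lower bins on chromosome 17, 4 lay in chr17:6745001-6985000 and 4 in chr17:7745001-8010000, which in part list the same reads. Among the 79 higher bins, 23 had a linked partner that was called as well, and among the 38 lower bins 11 did, so some calls count the same reads again. Some of the 79 reached the rule's 20 lines only through the secondary library. The bin chr15:46745001-46750000 held 1 MEF H3K4me3 line, 4 MEF H3K27me3 lines, no MEF H3K9me3 line and 35 secondary MEF H3K9me3 lines.

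Chromosome 12 stood apart in the pair. Its 544 bins had a ratio of 1.65 (1.61 to 1.70) after scaling by all 2-location lines. On the other 18 autosomes the ratio of these bins ranged from 0.780 to 1.17, with a mean of 0.994 ± 0.113 (SD over chromosomes). Chromosome 2, the lowest at 0.780, stood at 0.988 (0.956 to 1.02) without its 2 leading bins, and chromosome 14 moved from 0.822 to 0.991 (0.959 to 1.02) without 1 bin. With the 10 leading bins left out, the 18 autosomes ranged from 0.854 to 1.17. In the remaining bins of chromosome 12 the ratio was 1.33 (1.30 to 1.35) by 2-location lines, and by single-location lines over the whole chromosome it was 1.46. Both the bins that met the rule and the rest of the chromosome were thus raised, the former more by 2-location lines. The reason for the gap between 1.65 and 1.33 was not tested.

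**Figure D5:**
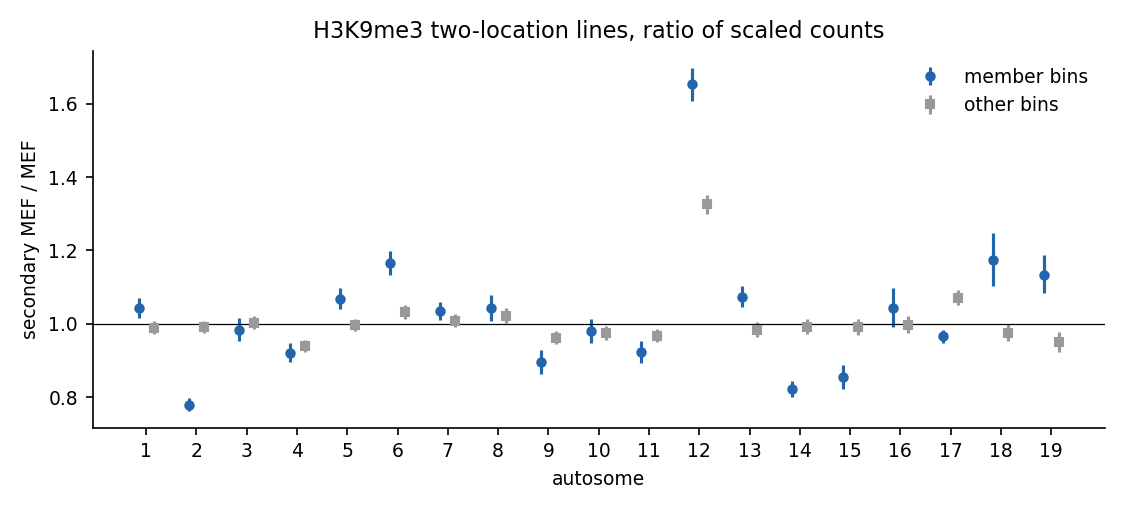
Ratio of scaled H3K9me3 2-location lines in secondary MEF to MEF for each autosome, in the bins rich in such lines (blue) and in the other bins (grey), with 95% Clopper-Pearson intervals; the line marks 1. Chromosome 12 is highest in both sets, at 1.65 and 1.33, and chromosome 2 is lowest in the blue set at 0.780.

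Among 538 clusters with at least 100 lines in the pair, the ratio had a 10th percentile of 0.711, a median of 1.04 and a 90th percentile of 1.52, and 14 clusters reached 2 or more and 6 were at 0.5 or less. The highest was chr7:6875001-6885000, with 147 lines in secondary MEF against 49 in MEF, a ratio of 3.26 (2.34 to 4.60). Single-location lines in its bins gave 3.63 (1.86 to 7.61), and those within 50 kb gave 1.30 (0.952 to 1.77). On chromosome 5, the neighbouring clusters chr5:15190001-15205000 and chr5:14935001-15125000 had 117 lines against 42 and 318 against 122, ratios of 3.02 (2.11 to 4.41) and 2.83 (2.29 to 3.52). The bins of both were poor in the other marks, with 13 and 42 MEF H3K4me3 lines and 17 and 58 MEF H3K27me3 lines. On chromosome 12, chr12:55625001-55670000 had 946 against 352 (2.92, 2.58 to 3.31), with 7 of its 8 bins called higher, and chr12:105530001-105605000 had 268 against 105 (2.77, 2.20 to 3.51). Single-location lines gave 2.38 (1.42 to 4.09) in the bins of the first and 1.41 (1.04 to 1.91) in those of the second. Those within 50 kb gave 1.93 (1.68 to 2.21) and 1.66 (1.49 to 1.86). The ratio of the chromosome's bins as a whole was 1.65. Both clusters were named for their high ratio, so its excess over that value is no separate result. The cluster chr12:107610001-107725000, in which 18 of 22 bins had 90% or more of their positions at 1 distance, had 984 lines against 498 (2.14, 1.92 to 2.39).

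The lowest ratio was in chr17:33755001-33770000, with 21 lines in secondary MEF against 88 in MEF (0.259, 0.153 to 0.421). Single-location lines in its bins gave 0.481 (0.297 to 0.760), and those within 50 kb gave 0.973 (0.884 to 1.07). Next were chr7:101430001-101460000, with 37 against 114 (0.352, 0.236 to 0.514), chr5:135885001-135895000, with 33 against 95 (0.377, 0.246 to 0.566), chr7:46605001-46625000, with 45 against 107 (0.456, 0.315 to 0.652), and chr7:43770001-43785000, with 32 against 71 (0.489, 0.312 to 0.752). In all 5 clusters MEF H3K27me3 was the library with the highest level, at 151 to 396 LPM, against 116 to 186 LPM for MEF H3K9me3. Large clusters with small deficits were the near-complete copy chr14:117670001-118125000, at 0.795 (0.745 to 0.848), and the inverted pair chr17:7745001-8010000 and chr17:6745001-6985000, at 0.775 (0.735 to 0.818) and 0.773 (0.733 to 0.816), each with 4 bins called lower. The values of that pair rest in part on the same reads, so they do not count separately.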

How the data were processed

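The authors deposited signed read positions, 1 per line and not normalised, rather than levels or other scores. Their headers give an alignment with Bowtie (-e 70, -k 2, -m 2, -n 2, -l 36, --best, --concise) and list reads with 1 and with 2 locations apart, per the file headers. The build, mm8, is named in the submitters' processing notes, and the aligner's version was not given in the sources used here. Positions were moved 75 bp to the 3' side of the 5' end, with 36-base reads assumed, and counted in 5 kb bins with Python 3.11.15, numpy 2.4.6 and scipy 1.17.1. The distance search left out partner bins with under 10 lines or over 1000 distinct positions and used unmoved positions. Ratios of all bins together used autosomal 2-location lines, and all other ratios a library's total of the read category counted. Negative control libraries were not analysed here. Scripts were tested on simulated data.

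The bins and the lists were chosen with earlier results of these data known. Named regions are the 10 clusters with the most bins and the 10 with the most lines, 3 bins with the highest level per library, and the clusters with the highest and lowest ratios, 5 each for the H3K9me3 pair and 3 each for other pairs. The distance search, the subset of near-complete copies, chromosome ends, flanks, chromosome ratios and the leading bins were chosen after their values were seen. Alternatives covered bin width, the 75 bp move, repeated positions, both limits of the rule, the cluster gap, scaling, minimum lines and chromosome 12. Leaving out leading bins, counting 1 of each linked pair and scaling by all 2-location lines were added after seeing the data.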

Additional observations from a re-analysis of the deposited data

Results flagged for a closer look

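Outside the autosomes, 705 bins of chromosome X and 59 bins of chromosome Y met the same rule, and none of them enters a value above. Their ratio of secondary MEF to MEF H3K9me3 lines was 0.827 (95% interval 0.806 to 0.849) on X, from 9750 and 12791 lines, and 1.58 (1.44 to 1.74) on Y, from 1063 and 731 lines.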

How the results depend on the processing

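Of 119 values recomputed under alternatives, 80 stayed within their limits (1.5 times for a count, the counting interval for a share or ratio) and 39 moved. The shares in the order MEF H3K4me3, MEF H3K27me3, MEF H3K9me3 and secondary MEF H3K9me3 became 40.6%, 32.2%, 31.4% and 31.8% in 10 kb bins, 38.4%, 31.9%, 29.3% and 30.0% with 1 line per position and strand, 39.6%, 27.6%, 24.6% and 23.4% with at least 50 lines, 34.3%, 26.8%, 24.4% and 24.6% with more than 2 times as many 2-location as single-location lines, and 38.9%, 32.0%, 28.7% and 29.7% without the 10 leading bins. MEF H3K4me3 was the highest each time. The H3K9me3 ratio under the same 5 settings was 1.01, 1.02, 0.953, 1.01 and 1.04, and it was 1.03 scaled by single-location lines and 0.984 without chromosome 12 in the bins and in the autosomal totals (0.963 with that chromosome kept in the totals), so its side of 1 is not settled. At least 50 lines left 3701 bins and 526 clusters, and joining adjacent bins only gave 1489 clusters. In 10 kb bins 24 were lower in secondary MEF and 154 had less MEF H3K9me3 than MEF H3K27me3 (the cause was not tested), while 85 were higher in secondary MEF and 144 had more MEF H3K9me3 than MEF H3K27me3. A minimum of 50 lines in the pair left 47 bins higher in secondary MEF, 315 with more MEF H3K9me3 than MEF H3K4me3 and 69 with more MEF H3K9me3 than MEF H3K27me3. Without chromosome 12, 41 were higher in secondary MEF. Scaled by single-location lines, these MEF counts were 1429 and 262, and 115 bins had less MEF H3K9me3 than MEF H3K27me3. Positions with no move and 1 of each linked pair kept every count within 1.5 times, although the latter turned the balance of MEF H3K27me3 against MEF H3K4me3 to 618 higher and 654 lower. No paired analysis was possible because each group holds 1 library. At 20 lines in a pair and equal totals, only a split of 18 to 2 or wider is called, so differences near 2-fold were not detectable in most bins.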
